A study of Oryctolagus cuniculus with 15 samples.

Results

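The genes described here encode the subunits of the oxidative phosphorylation system in rabbit corneal keratocytes. The members were chosen by gene name alone, with no use of measured values, but the group itself was picked with earlier results of these data known. The nuclear set held the 55 genes whose symbols begin with the usual prefixes of the 5 complexes (NDUFA, NDUFB, NDUFC, NDUFS, NDUFV, SDH, UQCR, COX4 to COX8 and ATP5). The mitochondrially encoded set held the 13 protein-coding genes of mitochondrial DNA, so that 68 of the 23428 genes in the count table were members. By prefix, 32 nuclear genes belonged to complex I, 4 to complex II, 1 to complex III, 2 to complex IV and 16 to complex V (ATP synthase). Many other subunits of complexes III and IV were not analysed here. ATP5S and ATP5SL carry the ATP5 prefix but are not structural subunits of the enzyme, and NDUFA4 is nowadays assigned to complex IV.

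All libraries were bulk RNA-seq of first-passage keratocytes from New Zealand white rabbits, kept for 6 days in serum-free medium, with 3 libraries from separate experiments for each of 5 conditions. Cells grew on a dish with a thin collagen coat (2DC), on top of a fibrillar collagen matrix (2DF), or inside such a matrix at 100000 cells (3DF) or 50000 cells (3DF_50) per matrix. 2DC_L was a 2DC culture that was lysed directly, whereas cells of every other condition were first incubated with digestion medium. Several dishes or matrices were pooled for each library, and no library was from a knockout, a cell line or a treated culture. Markers of keratocytes (6 of 6 genes found) summed to between 20042 and 43020 FPKM in the libraries, and the markers of myofibroblasts ACTA2 and TAGLN to at most 9.96 FPKM. FPKM is the number of fragments per kilobase of gene, scaled to a library size that the authors set, and is used here for levels. That size was not the total count of the library. The mean share of reads on the nuclear set was higher in 3DF_50 than in 2DC (0.382% and 0.326%). Its mean FPKM sum was lower (3395 and 3563). FPKM levels and their overlaps thus rest on that scaling too.

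Oxidative phosphorylation couples electron transport to ATP synthesis in the inner mitochondrial membrane. Complexes I and II pass electrons from NADH and succinate to ubiquinone, complex III passes them to cytochrome c, and complex IV passes them to oxygen. Complexes I, III and IV pump protons, and ATP synthase uses the gradient to make ATP. Most subunits are made in the cytosol and imported, but a core set is encoded by mitochondrial DNA and transcribed as long precursor RNAs, which are then cut at the flanking tRNAs. Complex II has no mitochondrially encoded subunit. The corneal stroma is thin and takes its oxygen from the air and the aqueous humour, and resting keratocytes are sparse, flat and slowly dividing cells.

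The subunit genes were among the more abundant transcripts. The median nuclear member had a mean level of 44.3 FPKM over the 15 libraries, against 7.19 FPKM for the median of all genes tested. ATP5B, the catalytic beta subunit of ATP synthase, was the highest nuclear gene at 305 FPKM, and COX4I1, a regulatory subunit of complex IV, followed at 221 FPKM. In complex I the highest was NDUFA4 and in complex II it was SDHA, the flavoprotein that oxidises succinate, at 84.9 FPKM. NDUFB1 was the lowest, with at most 8 reads in any library, and was the only nuclear member that did not pass the filter on low counts. ATP5I was the lowest of complex V at 5.41 FPKM, and SDHD, a membrane anchor, the lowest of complex II at 19.9 FPKM. The 13 mitochondrially encoded genes were higher still, with a median of 944 FPKM and from 5012 to 9056 FPKM for COX1, the catalytic subunit of complex IV. On oryCun2, 34 of the 55 nuclear genes lay on assembled autosomes, 2 on X and 19 on unplaced scaffolds.

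Together the nuclear members took 0.279% to 0.398% of the counted reads of a library, and the mitochondrially encoded members 1.67% to 3.31%. The library 3DF replicate 1 stood apart from all others. Its mitochondrially encoded share was 3.31%, against 2.14% and 2.12% in the other 3DF libraries, and its nuclear share of 0.279% was the lowest of the 15. The ratio of mitochondrially to nuclear encoded reads was 11.9 there and 4.64 to 7.54 in the other 14 libraries. In that library 12 of the 13 mitochondrially encoded genes, all but COX3, had their highest FPKM of the 15 libraries, and 33 of the 55 nuclear genes had their lowest. Against both other 3DF libraries, 41 nuclear genes were lower and 11 higher, with a median ratio of 0.824 to the mean of the other libraries. The 41 lower genes had a median annotated length of 688 bases and the 11 higher ones 1273 bases. Over all 14036 genes tested 42.2% were lower and 42.4% higher, with median lengths of 2167 and 3078 bases. The part of transcript length or of the library itself in these values was not tested. Counts of called members in pairs with 3DF are also given without this library where it changed them. Those of the lists of related genes are given with the effects of processing.

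**Figure D1:**
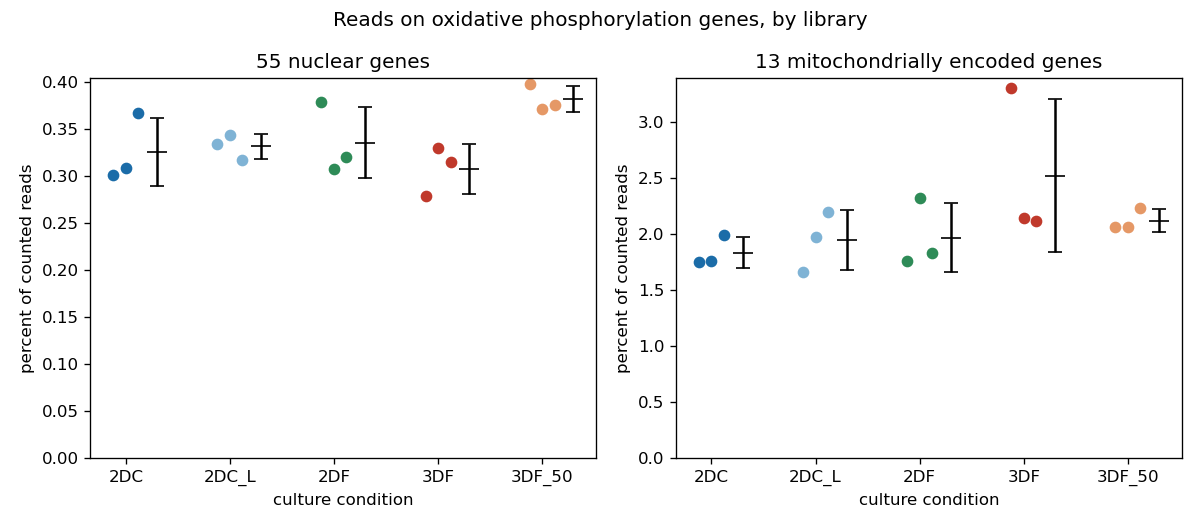
Percent of the counted reads of each library (vertical axes, from 0) on the 55 nuclear genes (left) and the 13 mitochondrially encoded genes (right), by culture condition. Points are libraries, and the bar with whiskers beside them is the mean ± SD of the 3. The highest mitochondrially encoded share, 3.31%, and the lowest nuclear share, 0.279%, are both from 3DF replicate 1.

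Shares of reads also move with the most abundant genes of a library, so all tests used normalized counts. A gene was called when its Benjamini–Hochberg adjusted p in edgeR's quasi-likelihood F test was at most 0.05, with p adjusted over all genes tested. Under TMM, the normalization used, the median gene had log2 fold changes between -0.0048 and 0.021 in the 10 pairs. Scaling by library size alone moved that median to 0.19 in 3DF vs. 2DC, 0.11 in 2DF vs. 2DC, 0.37 in 3DF_50 vs. 2DC and 0.36 in 3DF_50 vs. 2DC_L. The nuclear share of reads was thus higher in every 3DF_50 library (0.372% to 0.398%) than in any 2DC library (0.302% to 0.367%), while the median normalized log2 fold change of the nuclear members was -0.04.

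Differences among the 5 conditions were called for 17 of the 54 nuclear members tested and for 1 of the 13 mitochondrially encoded members, against 41.8% of all genes tested. DESeq2 called 21 and 2. The nuclear genes were NDUFA4L2, NDUFS1, NDUFV2, NDUFA3, NDUFA5, NDUFA7, NDUFA11 and NDUFA12 of complex I, SDHB and SDHC of complex II, UQCRQ of complex III, and ATP5A1, ATP5B, ATP5G1, ATP5G2, ATP5G3 and ATP5O of complex V. The mitochondrially encoded gene was ATP8. Over the 10 pairs of conditions 19 nuclear members were called at least once, NDUFA4L2 in 6 pairs and ATP5G2 in 5, and 35 were called in none. Only NDUFA4L2 and ATP8 passed both that test and the 2-fold limit of the study in any pair. NDUFA4L2 did so in 6 pairs, 3DF, 2DF and 3DF_50 against 2DC (7.56%, 4.96% and 11.6% of all genes) and against 2DC_L (10.2%, 7.39% and 13.5%), and ATP8 in 4 of these, not with 3DF. The pairs share libraries, so that calls in different pairs are not separate evidence.

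**Figure D2:**
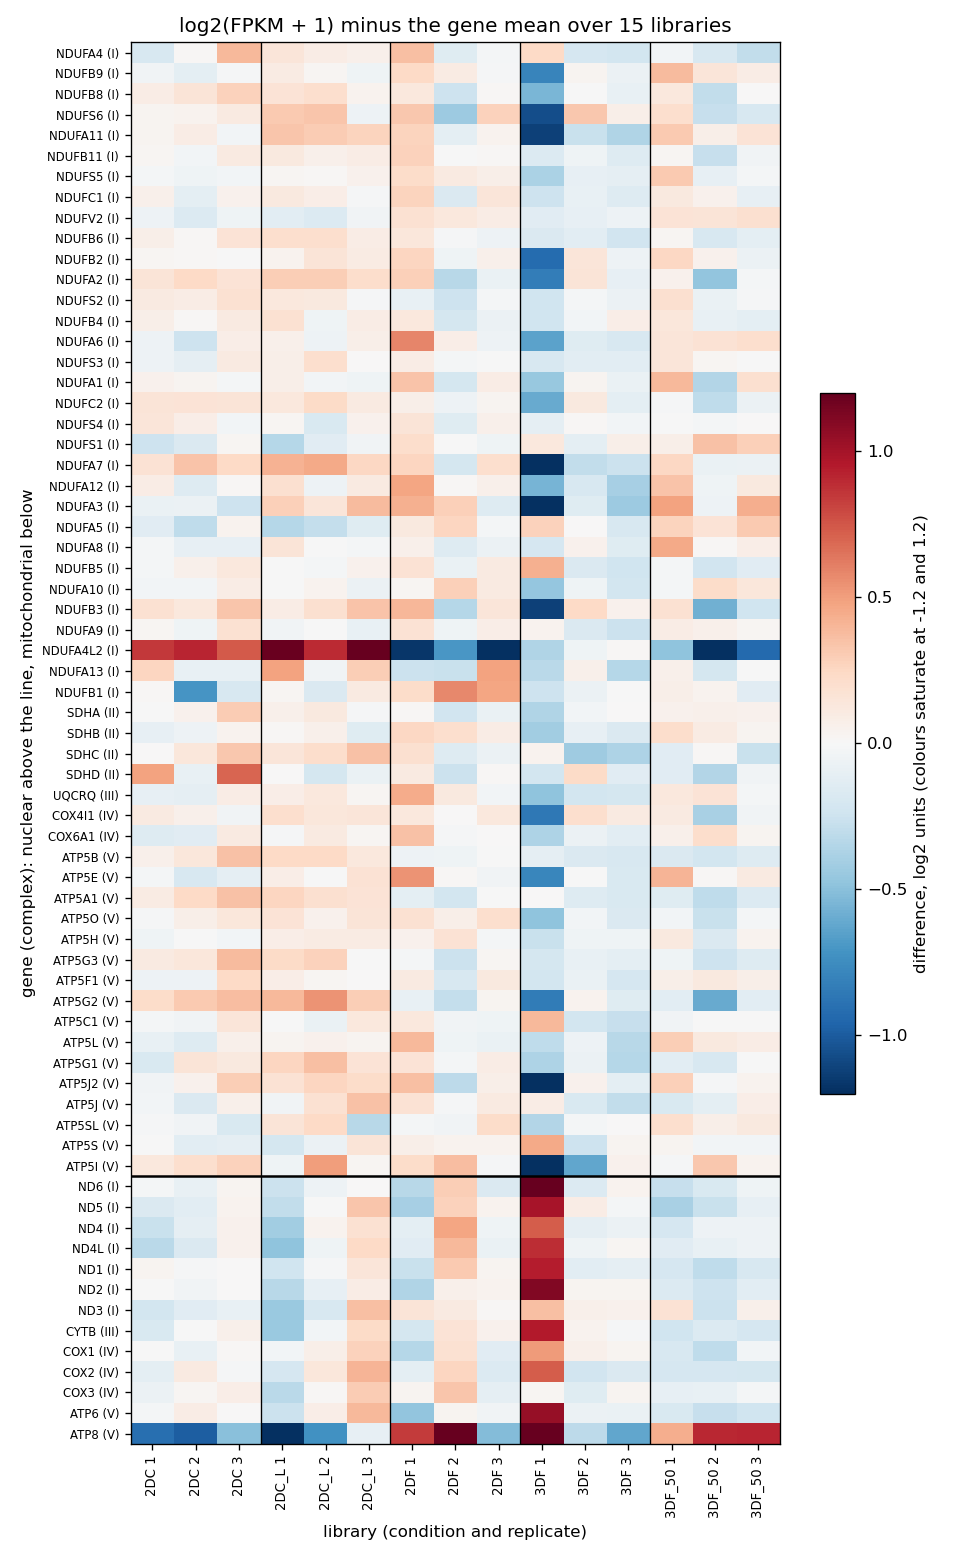
Log2(FPKM + 1) of each of the 68 genes (rows, with the complex in brackets) in the 15 libraries (columns), minus the mean of that gene over the libraries. Red is above and blue below the mean of the gene. NDUFA4L2 is above its mean in all 2DC and 2DC_L libraries and below it in 2DF, 3DF_50 and 3DF replicate 1. In 3DF replicates 2 and 3 it lies close to its mean. The library 3DF replicate 1 shows as a blue column over much of the nuclear set and a red one over the mitochondrially encoded set.

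Embedding in a 3D matrix was compared with the coated dish in 3DF vs. 2DC. Of the 54 nuclear members tested 1 was called, NDUFA4L2, which was lower, against 15.4% of all genes (6.98% higher and 8.38% lower). An unadjusted p under 0.05 was reached by 11, and DESeq2 called 5. The log2 fold changes were small and mostly to the same side, since 51 of 54 lay below 0, with a median of -0.23 against 0.01 for all genes. Without 3DF replicate 1 the median was -0.16, 44 lay below 0 and 6 members were called, all lower in 3DF. These were ATP5A1, ATP5B, ATP5G2, NDUFA4L2, NDUFA7 and SDHC, and that fit called 21.7% of all genes. With library size alone the median was -0.05, at an all-gene median of 0.19. The FPKM of 3DF and 2DC did not overlap for 21 of the 54 members, where 37.8% of all genes tested showed no overlap. Members without overlap took a similar or larger share than that of all genes in the other pairs with 3DF and between the dishes, with 18 of 54 in 3DF vs. 2DF (29.3% of all genes), 19 in 3DF vs. 3DF_50 (29.4%), 27 in 3DF vs. 2DC_L (44.8%) and 9 in 2DC vs. 2DC_L (12.8%). They took a smaller share in the remaining pairs, with 11 in 2DF vs. 2DC (35.2%), 11 in 2DF vs. 2DC_L (40.6%), 18 in 3DF_50 vs. 2DC (51.7%), 20 in 3DF_50 vs. 2DC_L (55.2%) and 4 in 3DF_50 vs. 2DF (30.9%). Summed over the nuclear set the level was 3563 ± 186 FPKM in 2DC and 3010 ± 318 FPKM in 3DF (SD, n = 3), and 3186 FPKM in 3DF without replicate 1.

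The surface of a fibrillar matrix was compared with the coated dish in 2DF vs. 2DC. Here 2 nuclear members were called, NDUFA4L2 and ATP5G2, both lower in 2DF, against 14.4% of all genes (6.73% higher and 7.63% lower), and DESeq2 called 3. The median log2 fold change was 0.04, with 32 members above and 22 below 0. Dimensionality within fibrillar collagen was compared in 3DF vs. 2DF. Of the nuclear members 0 were called by edgeR (6.05% of all genes), 11 had an unadjusted p under 0.05, and DESeq2 called 2. The median was -0.20, with 49 of 54 below 0, and -0.19 without 3DF replicate 1.

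Cell density and lysis gave few calls among all genes. In 3DF vs. 3DF_50 edgeR called 0 nuclear members (0.617% of all genes), 14 had an unadjusted p under 0.05 and DESeq2 called 2. The median log2 fold change was -0.21, and -0.16 without 3DF replicate 1. In 2DC vs. 2DC_L edgeR and DESeq2 each called 0 (0.367% of all genes by edgeR), and 4 had an unadjusted p under 0.05.

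More nuclear members were called where 3DF_50 was compared with the coated dishes. In 3DF_50 vs. 2DC 11 were called, 4 higher and 7 lower, against 38% of all genes (17.8% higher and 20.3% lower). In 3DF_50 vs. 2DC_L 15 were called, 3 higher and 12 lower, against 42.9% (20.8% higher and 22.1% lower). Without TMM, on library size only, these became 30 higher with 1 lower and 29 higher with 2 lower, where 57.9% and 60.4% of all genes were called, so the directions of small changes in these pairs hold relative to the median gene only. In 3DF_50 vs. 2DF edgeR called 0 (13.4% of all genes), 1 had an unadjusted p under 0.05 and DESeq2 called 0, and with library size alone 4 were called, all higher (27.2% of all genes). In 3DF vs. 2DC_L 6 were called, all lower (23.3% of all genes, 11.2% higher and 12.1% lower), and 14 without 3DF replicate 1, all lower too, where 29.2% of all genes were called. With library size alone that split was 2 higher and 2 lower (30.6% of all genes). In 2DF vs. 2DC_L 4 were called, 1 higher and 3 lower (22.6%, with 10.8% higher and 11.8% lower), and with library size alone 2 higher and 2 lower (24.9% of all genes). In each pair that involved 3DF_50 or 2DC_L and had calls, the share of members called was below the share of all genes.

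NDUFA4L2 changed most. It encodes a paralog of NDUFA4 that is known to be induced in hypoxia and to lower electron transport through the chain. The gene lies on the unplaced scaffold Un0016 from 403401 to 405431. Its level was 8.88, 9.32 and 8.14 FPKM in the 2DC libraries. In 2DC_L it was 11.5, 9.17 and 26.3 FPKM, so that 1 library was far above the others. The fibrillar conditions were all lower, and no library of them reached the lowest dish library. In 2DF the values were 1.44, 2.38 and 0.968 FPKM. In 3DF they were 3.27, 4.28 and 4.53 FPKM. In 3DF_50 they were 2.92, 0.624 and 1.87 FPKM. From 171 to 414 reads of NDUFA4L2 stood behind the values of the dish libraries. The fibrillar libraries had few, with 24, 40 and 16 in 2DF, 78, 92 and 87 in 3DF, and 49, 11 and 35 in 3DF_50. The order of the means was thus 2DC_L, 2DC, 3DF, 3DF_50 and 2DF, in which 2DC_L and 2DC overlapped, as did 3DF_50 and 2DF.

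The log2 fold change of NDUFA4L2 was -1.13 in 3DF vs. 2DC (edgeR adjusted p = 0.00599, SE 0.19). It was -2.45 in 2DF vs. 2DC (edgeR adjusted p = 0.00134, SE 0.30) and -2.28 in 3DF_50 vs. 2DC (edgeR adjusted p = 0.00215, SE 0.39). All 3 differences were larger than the spread between libraries. Against 2DC_L, whose cells were not exposed to digestion medium, NDUFA4L2 was lower by log2 fold changes of -1.94 in 3DF, -3.26 in 2DF and -3.09 in 3DF_50 (edgeR adjusted p = 0.00563, 0.000846 and 0.00089). The difference between 2DC and 2DC_L did not pass (-0.81, edgeR adjusted p = 0.868). In 3DF vs. 2DF the level was higher in all 3 libraries of 3DF, but the fold change of 1.33 (SE 0.35) did not pass the threshold (edgeR adjusted p = 0.0548), while DESeq2 called it (adjusted p = 0.0086). In 3DF vs. 3DF_50 it was 1.13 (edgeR adjusted p = 0.201, SE 0.44).

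The names of the libraries begin with prefixes, E2 to E10, that conditions share only in part. Within a prefix, single libraries gave log2 ratios of NDUFA4L2 of -1.31 for 3DF over 2DC and -1.67 for 3DF_50 over 2DC. Within prefixes the ratio over 2DC_L was -2.62 for 3DF, and -1.65 and -3.81 for 3DF_50. 2DF shares no prefix with 2DC, 2DC_L or 3DF, so the prefix and the condition cannot be told apart in those pairs. With all 5 conditions and the prefix in the model the 2DF vs. 2DC change of NDUFA4L2 was -0.98 (edgeR adjusted p = 0.843). With all 5 conditions and no prefix, 3DF vs. 2DC missed the threshold at -1.13 (edgeR adjusted p = 0.055).

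NDUFA4 showed smaller differences. NDUFA4 ranged from 54.2 to 88.0 FPKM over the 15 libraries, and its ranges in 2DC (58.4 to 88.0), 2DF (60.4 to 86.3) and 3DF (57.1 to 78.9) overlapped. Its log2 fold change was -0.15 in 3DF vs. 2DC and -0.0026 in 2DF vs. 2DC (edgeR adjusted p = 0.627 and 0.995). The only pair with a call was 3DF_50 vs. 2DC_L (-0.27, edgeR adjusted p = 0.0396), which turned to 0.088 with library size alone and was lost without 2DC_L replicate 1 or 2 or 3DF_50 replicate 2 or 3 (edgeR adjusted p = 0.0907 to 0.135). NDUFA4 transcripts outnumbered NDUFA4L2 transcripts per length in every library, by a factor of 2.65 to 10.8 in the dish libraries and of 12.6 to 93.6 in the fibrillar ones. The factor of 93.6 was from 3DF_50 replicate 2 and rested on 11 reads of NDUFA4L2.

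**Figure D3:**
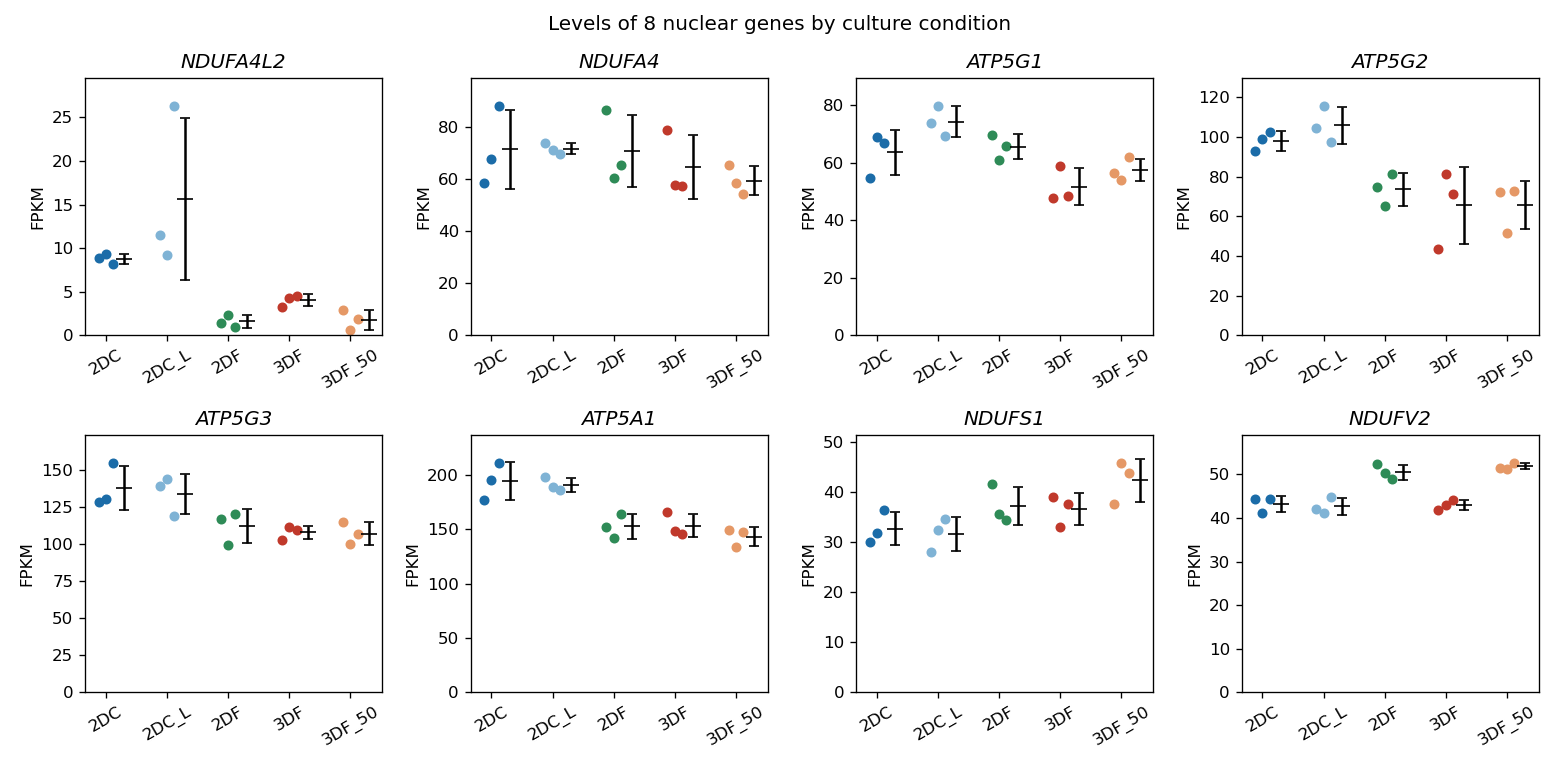
FPKM of 8 nuclear genes (vertical axes, from 0) by culture condition, with libraries as points and the mean ± SD of the 3 beside them. NDUFA4L2 separates the dish libraries (8.14 FPKM or more) from the fibrillar ones (4.53 FPKM or less), while NDUFA4 overlaps between conditions.

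Among the nuclear ATP synthase genes 5 were called in at least 1 pair, ATP5A1, ATP5B, ATP5G1, ATP5G2 and ATP5G3, in each case lower. The catalytic head of the enzyme is built of alpha (ATP5A1) and beta (ATP5B) subunits. Its rotor ring is built of c subunits, which ATP5G1, ATP5G2 and ATP5G3 encode as the same mature peptide with different import sequences. ATP5G2 (chromosome 4, 37463276 to 37471157) was 92.7, 99.0 and 102 FPKM in 2DC. In 2DC_L it was 104, 116 and 97.4 FPKM. In 2DF it was 74.5, 65.0 and 81.3 FPKM. In 3DF it was 43.8, 81.4 and 71.4 FPKM, and in 3DF_50 72.4, 51.7 and 72.7 FPKM. No fibrillar library reached the lowest dish library. The log2 fold change of ATP5G2 was -0.41 in 2DF vs. 2DC (edgeR adjusted p = 0.0268, SE 0.10), and -0.58 in 3DF_50 vs. 2DC (edgeR adjusted p = 0.00702, SE 0.13). In 3DF vs. 2DC it was -0.59, with an SE of 0.21, and did not pass (edgeR adjusted p = 0.103). Without 3DF replicate 1, the lowest of all libraries at 43.8 FPKM, it was -0.36 and passed (edgeR adjusted p = 0.0283). Against 2DC_L the fold changes were -0.52 in 2DF, -0.69 in 3DF and -0.69 in 3DF_50 (edgeR adjusted p = 0.00775, 0.0417 and 0.00226). Of these the 3DF call of ATP5G2 was lost without any 1 of the 2DC_L libraries or 3DF replicate 3 (edgeR adjusted p = 0.0654 to 0.135). The 2DF vs. 2DC call was lost without 2DC replicate 2 or 3 or 2DF replicate 1 or 2 (-0.41 to -0.32, edgeR adjusted p = 0.0616 to 0.107). With the prefix in the model it was -0.08 (edgeR adjusted p = 0.975).

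ATP5G3, the most abundant of the 3 c subunit genes, was 128, 130 and 155 FPKM in 2DC and 115, 99.7 and 106 FPKM in 3DF_50. It was lower in 3DF_50 vs. 2DC by a log2 fold change of -0.36 (edgeR adjusted p = 0.0164), and in 3DF_50 vs. 2DC_L by -0.32 (edgeR adjusted p = 0.0222). Both ATP5G3 calls were lost without 3DF_50 replicate 2 or 3, and the latter also without 2DC_L replicate 1 or 2 (edgeR adjusted p = 0.0509 to 0.0842). ATP5G1 was lower in 3DF and 3DF_50 than in 2DC_L, with -0.52 and -0.37 (edgeR adjusted p = 0.0199 and 0.0085), but its change in 2DF vs. 2DC was 0.05 (edgeR adjusted p = 0.781). The ATP5G1 call in 3DF was lost without 2DC_L replicate 1 or 2 or 3DF replicate 3 (edgeR adjusted p = 0.0741 to 0.0934). The 3 genes together reached 299 ± 24.3 FPKM in 2DC and 314 ± 27.3 in 2DC_L, against 251 ± 22.8 in 2DF, 225 ± 29.1 in 3DF and 230 ± 21.3 in 3DF_50 (SD, n = 3 each). The sums of 2DC (275 to 324) and 2DC_L (285 to 339) lay above those of 2DF (225 to 268), 3DF (194 to 252) and 3DF_50 (206 to 244). Of that sum ATP5G2 made up 32.8 ± 1.06% in 2DC, 33.7 ± 0.719% in 2DC_L and 29.3 ± 0.958% in 2DF. In 3DF the share was 22.6% in replicate 1 and 31.1% and 32.4% in the others.

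ATP5A1 and ATP5B fell in 3DF_50. ATP5A1 (chromosome 9, 87502227 to 87513317) was 177, 196 and 211 FPKM in 2DC and 149, 133 and 147 FPKM in 3DF_50, a log2 fold change of -0.44 (edgeR adjusted p = 0.00593, SE 0.09). Against 2DC_L it was -0.41 in 3DF_50 (edgeR adjusted p = 0.00429) and -0.31 in 2DF (edgeR adjusted p = 0.0435). The latter was lost without any 1 of 5 libraries, all but 2DF replicate 3 (edgeR adjusted p = 0.0607 to 0.165). ATP5B (chromosome 4, 40143010 to 40147990) was 316, 333 and 386 FPKM in 2DC and 268, 260 and 272 FPKM in 3DF_50, a log2 fold change of -0.37 (edgeR adjusted p = 0.0168, SE 0.10), and -0.38 against 2DC_L (edgeR adjusted p = 0.00843). In 3DF both had lower means than in 2DC, with no overlap between the libraries, and fold changes of -0.35 for ATP5A1 and -0.36 for ATP5B (edgeR adjusted p = 0.0826 and 0.0858). Relative to each other the pair moved little, and the ratio of ATP5B to ATP5A1 was between 1.69 and 2.05 in every library. With library size alone the 3DF_50 vs. 2DC values of ATP5A1 and ATP5B were -0.09 and -0.02 (edgeR adjusted p = 0.473 and 0.885), at an all-gene median of 0.37.

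ATP5C1, the gamma subunit of the central stalk, ATP5F1 and ATP5H of the peripheral stalk, and ATP5J, ATP5L, ATP5J2, ATP5E, ATP5I and ATP5O were called in 0 of the 10 pairs by edgeR. ATP5E had 179, 159 and 169 FPKM in 2DC and 241, 184 and 196 FPKM in 3DF_50, a log2 fold change of 0.29 that did not pass (edgeR adjusted p = 0.0586). ATP5I was 1.28 FPKM in 3DF replicate 1, against 3.00 to 7.72 FPKM elsewhere, and the 3DF vs. 2DC change of -0.93 did not pass (edgeR adjusted p = 0.196, SE 0.43).

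In complex I the calls in 3DF_50 went both ways. NDUFS1 and NDUFV2 carry iron-sulfur clusters in the module that takes electrons from NADH, and NDUFA5 lies in the matrix arm of the complex. NDUFS1 (chromosome 7, 146914957 to 146948743) was 30.1, 31.8 and 36.4 FPKM in 2DC and 37.6, 45.9 and 43.8 FPKM in 3DF_50. Its log2 fold change was 0.38 (edgeR adjusted p = 0.0198, SE 0.10), and 0.42 in 3DF_50 vs. 2DC_L (edgeR adjusted p = 0.00943). The NDUFS1 call against 2DC was lost without 2DC replicate 1 or 2 or 3DF_50 replicate 2 or 3 (edgeR adjusted p = 0.0621 to 0.0741). NDUFV2 (chromosome 9, 52646228 to 52678083) was 44.3, 41.0 and 44.4 FPKM in 2DC, 42.1, 41.1 and 44.8 in 2DC_L, and 51.6, 51.3 and 52.6 FPKM in 3DF_50. The 3DF_50 libraries were thus nearly equal and all above the dish libraries, with log2 fold changes of 0.26 vs. 2DC (edgeR adjusted p = 0.0163, SE 0.07) and 0.29 vs. 2DC_L (edgeR adjusted p = 0.013). The NDUFV2 calls were lost without 2DC replicate 2 (edgeR adjusted p = 0.0958) and without 2DC_L replicate 1 or 2 (edgeR adjusted p = 0.0573 and 0.0596). In 2DF NDUFV2 was 52.3, 50.2 and 48.9 FPKM, also without overlap with 2DC, but 0.23 did not pass (edgeR adjusted p = 0.0855, SE 0.08). In 3DF it was 41.9, 43.1 and 44.1 FPKM, the range of the dish libraries.

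NDUFA5 was higher in 3DF_50 than in 2DC by 0.39 (edgeR adjusted p = 0.027, SE 0.12) and than in 2DC_L by 0.53 (edgeR adjusted p = 0.00318, SE 0.11), and higher in 2DF than in 2DC_L by 0.41 (edgeR adjusted p = 0.0449). It was 27.9, 24.7 and 31.7 FPKM in 2DC and 37.3, 34.7 and 38.6 FPKM in 3DF_50. The NDUFA5 call in 3DF_50 vs. 2DC_L held under every alternative, while that against 2DC was lost without replicate 1 or 2 of 2DC or 1 or 3 of 3DF_50 (edgeR adjusted p = 0.0705 to 0.111). That in 2DF vs. 2DC_L was lost without any 1 of 5 libraries, all but 2DF replicate 3 (edgeR adjusted p = 0.053 to 0.167). NDUFB9, of the membrane arm, was higher in 3DF_50 vs. 2DC by 0.27 (edgeR adjusted p = 0.0439). DESeq2 did not call NDUFB9 (adjusted p = 0.0588), and the call was lost without any 1 of 5 libraries, all but 3DF_50 replicate 3 (edgeR adjusted p = 0.0597 to 0.161). NDUFC2, also of the membrane arm, was lower in 3DF_50 vs. 2DC and vs. 2DC_L, by -0.29 in both (edgeR adjusted p = 0.0436 and 0.0485). DESeq2 called NDUFC2 in neither (adjusted p = 0.0607 and 0.0615), both calls were lost without any 1 of 5 libraries, all but 3DF_50 replicate 1 (edgeR adjusted p = 0.0552 to 0.152), and the sign turned with library size alone (0.062 and 0.063). In 3DF_50 vs. 2DC_L NDUFA2, NDUFA7 and NDUFB6 were lower too (-0.41, -0.35 and -0.27, edgeR adjusted p = 0.0325, 0.0441 and 0.0454). Each of these calls was lost without 2DC_L replicate 1 or 2 or 3DF_50 replicate 2, those of NDUFA7 and NDUFB6 also without 3DF_50 replicate 3 (edgeR adjusted p = 0.0628 to 0.142). With library size alone none of the 3 was called. In 3DF vs. 2DC_L the lower genes of complex I besides NDUFA4L2 were NDUFA11 (-0.86) and NDUFA3 (-0.84, edgeR adjusted p = 0.022 and 0.0453), both lowest in 3DF replicate 1, at 22.5 and 12.9 FPKM. Without that library they were -0.62 and -0.57 and passed (edgeR adjusted p = 0.00344 and 0.0183). Both calls were lost without any 1 of the 2DC_L libraries (edgeR adjusted p = 0.0603 to 0.072 for NDUFA11 and 0.0901 to 0.124 for NDUFA3). That of NDUFA3 was also lost without 3DF replicate 3 and with library size alone (edgeR adjusted p = 0.0767 and 0.0874).

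**Figure D4:**
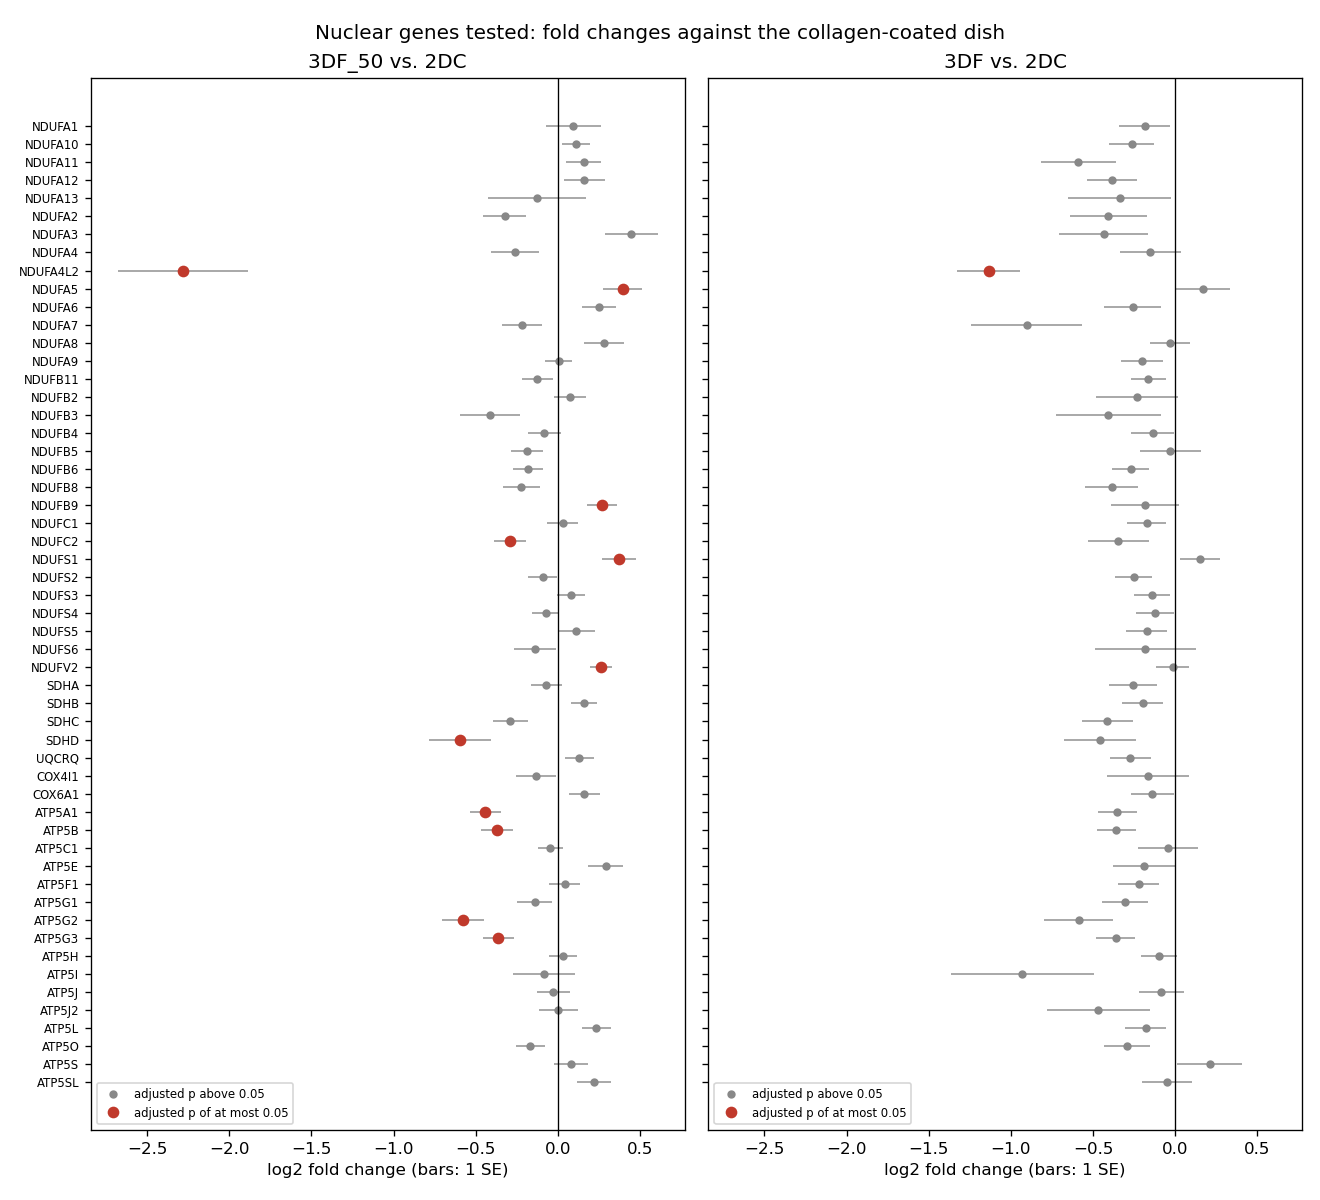
Log2 fold changes of the 54 nuclear genes tested (rows, in the order of complexes I to V from the top) in 3DF_50 vs. 2DC (left) and 3DF vs. 2DC (right), with bars of 1 SE. Red points have an edgeR adjusted p of at most 0.05, which is 11 genes on the left and NDUFA4L2 alone on the right, where 51 of 54 points lie below 0.

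In complexes II to IV the nuclear genes called in a pair of conditions were SDHC and SDHD. The test over all 5 conditions called SDHB, SDHC and UQCRQ, but not SDHD. The succinate dehydrogenase anchor SDHC was 34.7, 38.1 and 43.6 FPKM in 2DC, 38.6, 40.3 and 44.5 in 2DC_L, 35.8, 25.6 and 26.5 in 3DF, and 31.4, 35.0 and 28.7 FPKM in 3DF_50. It was lower than in 2DC_L by -0.49 in 3DF and -0.37 in 3DF_50 (edgeR adjusted p = 0.0457 and 0.0106). The SDHC call in 3DF was lost without any 1 of 5 libraries, all but 3DF replicate 1 (edgeR adjusted p = 0.104 to 0.145), and with library size alone both were lost (edgeR adjusted p = 0.118 and 0.913). The other anchor, SDHD, was lower in 3DF_50 vs. 2DC by -0.60 (edgeR adjusted p = 0.0353, SE 0.19), but its 2DC values of 27.6, 18.2 and 32.3 FPKM overlapped with 17.7, 15.1 and 18.9 FPKM in 3DF_50. That call was lost without any 1 of 5 libraries, all but 2DC replicate 2 (-0.67 to -0.42, edgeR adjusted p = 0.061 to 0.123). SDHA was -0.26 in 3DF vs. 2DC (edgeR adjusted p = 0.282).

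UQCRQ, the nuclear member of complex III, was 89.6, 88.9 and 102 FPKM in 2DC, 131, 104 and 93.5 in 2DF, and 68.3, 82.2 and 82.8 in 3DF. The 3DF libraries lay below those of 2DC and 2DF, with -0.27 and -0.49, neither past the threshold (edgeR adjusted p = 0.19 and 0.104). COX4I1 and COX6A1 of complex IV were called in 0 of the 10 pairs by edgeR. COX4I1 was 119 FPKM in 3DF replicate 1 and 249 and 234 FPKM in the other 3DF libraries, the latter within or above the 211 to 235 FPKM of 2DC.

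Of the mitochondrially encoded genes, ATP8, ATP6 and ND1 were called in at least 1 pair. In 3DF vs. 2DC edgeR called 0 of 13, 2 had an unadjusted p under 0.05, and DESeq2 called 1, ATP8. The median log2 fold change was 0.37 with 12 of 13 above 0, but without 3DF replicate 1 it was 0.04 with 8 above 0. In 3DF vs. 2DF edgeR and DESeq2 called 0, 0 had an unadjusted p under 0.05, and the median went from 0.29 to -0.03 without that library. In 3DF vs. 3DF_50 both tools called 0, 3 had an unadjusted p under 0.05, and the median went from 0.42 to 0.09. In 3DF vs. 2DC_L it went from 0.36 to 0.0038, with 0 called by both tools and 0 at an unadjusted p under 0.05. Libraries did not overlap for 3 of the 13 genes in 3DF vs. 2DC (37.8% of all genes), 7 in 3DF vs. 3DF_50 (29.4%), 5 in 3DF_50 vs. 2DC (51.7%), 1 each in 2DF vs. 2DC (35.2%), 3DF_50 vs. 2DF (30.9%) and 3DF_50 vs. 2DC_L (55.2%), and 0 in the other 4 pairs. The larger medians of 3DF in the 4 pairs above rested on 3DF replicate 1. 2DC vs. 2DC_L and 3DF_50 vs. 2DF had 0 called by both tools and 0 at an unadjusted p under 0.05.

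**Figure D5:**
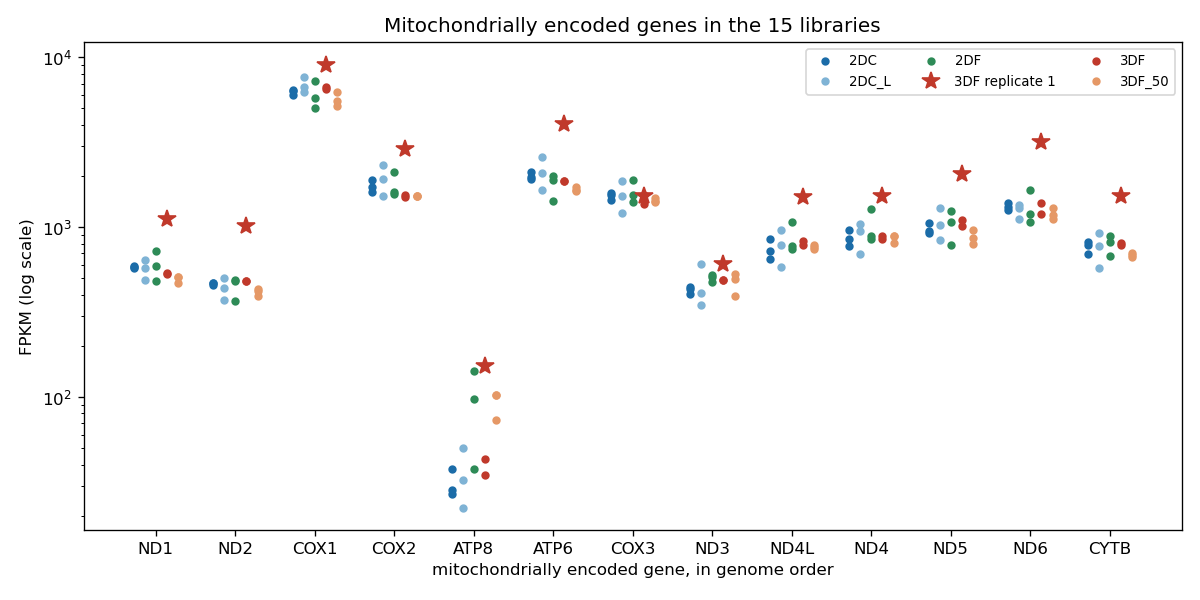
FPKM of the 13 mitochondrially encoded genes (log axis) in the 15 libraries, in genome order. Colours are conditions and stars mark 3DF replicate 1, which is the highest library for every gene except COX3, while ATP8 is the gene whose 3DF_50 libraries (73.3 to 103 FPKM) lie apart from the dish libraries (22.2 to 50.3 FPKM).

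In 3DF replicate 1 the mitochondrially encoded genes of every complex were high. ND6, the complex I subunit on the light strand, was 3167 FPKM there and 1200 and 1386 FPKM in the other 3DF libraries. ND2 was 1018 FPKM there, against 481 and 482 FPKM. ATP6, the proton channel subunit of ATP synthase, was 4059 FPKM, against 1876 and 1864 FPKM. CYTB, the core subunit of complex III, was 1524 FPKM, against 812 and 781 FPKM. ND1, ND3, ND4, ND4L and ND5, the other complex I subunits, and COX1 and COX2 of complex IV were higher there too, while COX3 was 1534 FPKM, against 1360 and 1541 FPKM. The ratio of 3DF replicate 1 to the mean of the other 3DF libraries ran from 1.06 for COX3 to 3.88 for ATP8.

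ATP8 (mitochondrial DNA, 7796 to 7999) encodes a small membrane subunit of ATP synthase and was the lowest of the 13. It shares 43 bases with ATP6, which follows it on the same RNA, and reads there could be counted for only one or neither of the genes. ATP8 was 28.4, 26.7 and 37.9 FPKM in 2DC. In 2DC_L it was 22.2, 32.3 and 50.3 FPKM. In 3DF_50 it was 73.3, 102 and 103 FPKM, above every dish library. In 2DF the libraries were spread, at 97.7, 141 and 37.5 FPKM, and in 3DF too, at 151, 43.3 and 34.7 FPKM. From 120 to 774 reads per library stood behind these values.

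The log2 fold change of ATP8 was 1.59 in 3DF_50 vs. 2DC (edgeR adjusted p = 0.000254, SE 0.18) and 1.45 in 3DF_50 vs. 2DC_L (edgeR adjusted p = 0.00154, SE 0.26). Within a prefix, single libraries gave log2 ratios of 1.46 over 2DC, and of 1.18 and 1.03 over 2DC_L. The 2DF vs. 2DC value was 1.58 (edgeR adjusted p = 0.0315, SE 0.40) and in 2DF vs. 2DC_L 1.43 (edgeR adjusted p = 0.0368, SE 0.43), but 2DF replicate 3 lay within the range of the dish libraries. The 2DF vs. 2DC call was lost without 2DC replicate 1 or 2 or 2DF replicate 1 or 2 (edgeR adjusted p = 0.0779 to 0.122), and the 2DF vs. 2DC_L call without replicate 1 or 2 of either (edgeR adjusted p = 0.0942 to 0.142). Between 3DF and 2DC it was 1.29 (edgeR adjusted p = 0.131, SE 0.51), and 0.33 without 3DF replicate 1. Without that library 3DF was lower than 3DF_50 by -1.27 (edgeR adjusted p = 0.0242). Of the 13 genes 1 was called in 2DF vs. 2DC, 3 in 3DF_50 vs. 2DC, 1 in 3DF_50 vs. 2DC_L and 1 in 2DF vs. 2DC_L, where 14.4%, 38%, 42.9% and 22.6% of all genes were.

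ATP6, which shares its RNA with ATP8, was 1931, 2097 and 1971 FPKM in 2DC and 1729, 1625 and 1663 FPKM in 3DF_50, a log2 fold change of -0.26 (edgeR adjusted p = 0.04997), and ND1 was -0.24 (edgeR adjusted p = 0.0457). With library size alone both turned, to 0.096 and 0.12, and both calls were lost when any 1 library was left out. The FPKM of ATP8 was 1.27% to 1.96% of that of ATP6 in the dish libraries and 4.24% to 6.29% in 3DF_50. In 2DF it was 6.89%, 7.02% and 1.97%, and in 3DF 3.73%, 2.31% and 1.86%. This ratio does not depend on the scaling of the libraries, but it does depend on which fragments could be counted for ATP8. ATP8 has 204 annotated bases, of which 43 are shared with ATP6. The part of counting in the ATP8 values was not tested, so they are not a measure of RNA level alone. ND4L and ND4 overlap by 7 bases and ND5 and ND6, on opposite strands, by 5. The sources used here do not say whether counting used strand, so reads of ND6 and of the RNA opposite to it may not be separated.

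Genes that serve the complexes were read from lists of related genes. Of the factors that assemble complexes I to V (26 of 51 listed were found), 0 were called by edgeR or DESeq2 in the primary pairs (3DF vs. 2DC, 3DF vs. 2DF, and 2DF vs. 2DC, with 15.4%, 6.05% and 14.4% of all genes called), and 4, 2 and 2 had an unadjusted p under 0.05. TTC19, a complex III assembly factor, had the smallest p in 3DF vs. 2DC. It was 20.6, 20.4 and 19.2 FPKM in 2DC and 24.6, 25.7 and 23.9 FPKM in 3DF. Of 26 tested genes for replication, transcription and RNA processing of mitochondrial DNA, edgeR called 0 in each of these pairs (4, 2 and 3 with an unadjusted p under 0.05, and 1, 0 and 0 by DESeq2). TFAM, which packages mitochondrial DNA and starts its transcription, was 4.33, 3.69 and 4.80 FPKM in 2DC and 12.5, 5.86 and 6.71 FPKM in 3DF. Its highest value was in 3DF replicate 1, and its log2 fold change of 0.96 did not pass (edgeR adjusted p = 0.0515).

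Of the 18 tricarboxylic acid cycle enzymes 2 were called in 3DF vs. 2DC and 2 in 2DF vs. 2DC, 1 in each direction, against 15.4% and 14.4% of all genes, and 0 in 3DF vs. 2DF (4 with an unadjusted p under 0.05, 0 by DESeq2). Citrate synthase, CS, which opens the cycle, was 52.8, 55.4 and 51.7 FPKM in 2DC, 35.5, 36.8 and 39.7 in 2DF and 45.0, 38.2 and 37.8 FPKM in 3DF. It was lower by -0.51 in 2DF (edgeR adjusted p = 0.00442, SE 0.08) and -0.41 in 3DF (edgeR adjusted p = 0.0402, SE 0.11). IDH3B, a subunit of the NAD-dependent isocitrate dehydrogenase, was 27.5, 29.1 and 29.8 FPKM in 2DC, 47.5, 44.0 and 42.2 in 2DF and 40.7, 44.3 and 42.9 FPKM in 3DF. It was higher by 0.64 in 2DF and 0.56 in 3DF (edgeR adjusted p = 0.00179 and 0.00892). The IDH3B call in 3DF was lost without 2DC replicate 2 (edgeR adjusted p = 0.0584). In both genes the fibrillar libraries did not overlap with those of 2DC. The 2DF vs. 2DC calls of CS and IDH3B each held in 7 of 8 alternatives other than leaving out a library. The highest adjusted p over these alternatives, by edgeR or DESeq2, was 0.504 for CS and 0.391 for IDH3B. 2DF and 2DC share no prefix, so prefix and condition cannot be told apart there. The CS call in 3DF was lost without any 1 of 5 libraries, all but 3DF replicate 1 (-0.42 to -0.37, edgeR adjusted p = 0.104 to 0.183).

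Among 21 tested electron carriers and transporters (22 in 3DF vs. 2DF), UCP2, a carrier of the inner membrane, was 4.404, 4.59 and 3.38 FPKM in 3DF and at most 2.22 FPKM in every other library. Its log2 fold change was 1.34 in 3DF vs. 2DC (edgeR adjusted p = 0.00463, SE 0.21) and 1.36 in 3DF vs. 2DF (edgeR adjusted p = 0.0092, SE 0.24). The latter call held in 7 of 8 alternatives other than leaving out a library. The highest adjusted p over these alternatives, by edgeR or DESeq2, was 0.521. 3DF and 2DF share no prefix, so prefix and condition cannot be told apart there. USMG5, a small protein bound to ATP synthase dimers, was lower in 3DF vs. 2DC by -0.70 (edgeR adjusted p = 0.0252), a call that was lost without any 1 of the 2DC libraries (edgeR adjusted p = 0.0674 to 0.0953). In 2DF vs. 2DC 0 of these were called by edgeR, 2 had an unadjusted p under 0.05, and DESeq2 called 2. Of 70 mitochondrial ribosomal protein genes, edgeR called 0 in 3DF vs. 2DC (7 with an unadjusted p under 0.05, 0 by DESeq2) and 0 in 3DF vs. 2DF (7 and 1), and 3 in 2DF vs. 2DC, MRPL36, MRPL40 and MRPL45, all higher, against 14.4% of all genes. The MRPL36 call was lost without replicate 1 or 2 of 2DC or 2DF (edgeR adjusted p = 0.113 to 0.165) and that of MRPL45 without any 1 of 5 libraries, all but 2DF replicate 3 (edgeR adjusted p = 0.0794 to 0.168). PPARGC1B, a coactivator of mitochondrial biogenesis, was the only gene of 12 tested regulators called in these 3 pairs, higher in 2DF vs. 2DC by 0.63 (edgeR adjusted p = 0.044). The PPARGC1B call was lost without replicate 1 or 2 of 2DC or 2DF (edgeR adjusted p = 0.105 to 0.167). For both pairs with 3DF edgeR called 0 of them, 2 had an unadjusted p under 0.05 in each, and DESeq2 called 1 in each.

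Since NDUFA4L2 is known as a hypoxia-induced gene, other such genes were read beside it. Of 17 tested, 6 were called in 3DF vs. 2DC, 3 higher and 3 lower, and 7 in 2DF vs. 2DC, 5 higher and 2 lower, against 15.4% and 14.4% of all genes. VEGFA, an angiogenic factor, was higher in both, by 1.41 in 3DF and 1.87 in 2DF (edgeR adjusted p = 0.00336 and 0.000734). The VEGFA call in 2DF, which shares no prefix with 2DC, held in 7 of 8 alternatives other than leaving out a library. The highest adjusted p of VEGFA over these, by edgeR or DESeq2, was 0.320. LOX and P4HA1, which crosslink and hydroxylate collagen, were lower in 3DF by -2.02 and -1.201 (edgeR adjusted p = 0.000165 and 0.000997). In 3DF vs. 2DF 3 were called, HILPDA higher and LOX and ADM lower (6.05% of all genes), of which HILPDA was lost without any 1 of 5 libraries, all but 3DF replicate 1 (edgeR adjusted p = 0.0585 to 0.0946). Of 8 alternatives other than leaving out a library, the LOX and ADM calls held in 7 and that of HILPDA in 6. The highest adjusted p over these, by edgeR or DESeq2, was 0.533 for LOX, 0.608 for ADM and 0.774 for HILPDA. Prefix and condition cannot be told apart in that pair either.

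Markers of other cells of the cornea were read for the same libraries. Corneal epithelial markers (6 of 7 found) were highest in 3DF, where they summed to 7.37 to 12.5 FPKM, against 0.0699 to 0.846 in 2DC, 0.0719 to 0.698 in 2DC_L, 0.685 to 5.72 in 2DF and 0.0373 to 5.77 in 3DF_50. Myofibroblast markers (2 of 2) summed to 4.67 to 7.11 FPKM in 2DC and 2.86 to 9.96 in 2DC_L, against 1.38 to 3.50 in 2DF, 0.372 to 0.754 in 3DF and 0.256 to 0.620 in 3DF_50. The mean of each marker was lower in every fibrillar condition than on the dishes, as was that of NDUFA4L2. Within the fibrillar conditions the order differed. The markers were higher in 2DF than in 3DF, whereas NDUFA4L2 had a lower mean in 2DF (1.60 FPKM) than in 3DF (4.03 FPKM). Endothelial markers (4 of 4) summed to 277 to 418 FPKM in 2DC, 367 to 465 in dishes lysed directly, 362 to 462 in 2DF, 120 to 185 in 3DF and 74.4 to 94.1 in 3DF_50, nearly all of it COL8A2 and SLC4A4, with SLC4A11 at most 1.28 FPKM and CDH2 at most 0.554 FPKM in any library. Vascular endothelial markers (3 of 3) summed to 112 to 116 FPKM in 3DF and 30.7 to 72.4 elsewhere, nearly all of it KDR, with PECAM1 and VWF at most 0.167 FPKM, and those of Schwann cells, striated muscle and mural cells to at most 3.42 FPKM in any library. Leukocyte markers (5 of 5) reached 9.55 to 13.6 FPKM in 2DF and 3.36 to 8.21 elsewhere. The part of other cells or of cell state in the results for the subunit genes was not tested. In bulk RNA, fewer cells of a type and less RNA per cell cannot be told apart.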

How the data were processed

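RNA was measured in 15 libraries of rabbit keratocytes, 3 for each of 5 conditions. The authors' deposited counts are whole reads per gene, aligned to oryCun2 with HISAT2 2.0.5 and counted with featureCounts 1.5.0-p3, with no normalization. The authors' deposited FPKM values are those counts divided by gene length and a library size that they set, and served for levels only. Totals were 14626982 to 31804255 counts per library. Each pair of conditions was fitted alone in edgeR 4.0.16 (R 4.3.3, TMM, filterByExpr with a minimum count of 10, two-sided quasi-likelihood F test), and 1 model of all 5 gave the test of any difference. A gene was called at an adjusted p (Benjamini–Hochberg) no higher than 0.05, although the study also asked for a |log2 fold change| of at least 1, which was an alternative here. The SE is the log2 fold change divided by the square root of F. P-values measure the spread between separate experiments.

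The gene names that define the members use no measured value, but this gene group and the lists were picked with earlier results of these data known. Named were members called with a |log2 fold change| of at least 1, all mitochondrially encoded genes, up to 3 called members with the smallest p per direction in the primary pairs (3DF or 2DF vs. 2DC, and 3DF vs. 2DF), the highest and lowest nuclear gene of each complex, genes with alternative forms, and the smallest p and up to 3 larger changes of each list. All other genes named were chosen after their values were seen. Alternatives were DESeq2 1.42.0, its size factors within edgeR, library size alone, a filter of 1 CPM on average or none, a single model over 5 conditions, blocks for replicate number or for library prefix, the fold change limit, and leaving out each library. Sequences, reads and most genes of complexes III and IV are not analysed here. Figures were drawn with Python 3.11.15 and matplotlib 3.10.9.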

Additional observations from a re-analysis of the deposited data

How the results depend on the processing

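Depth was 14626982 reads or more per library, and with 3 libraries a condition the spread between libraries limits the small changes described here. DESeq2 size factors within edgeR and a filter at a mean of 1 CPM kept every count of called members within 1.5 times the reported one. Of the results for single genes, 533 kept direction and side of the threshold under the alternatives other than leaving out a library, 114 lost a call, 8 gained one and 9 changed direction. When 1 library was left out the numbers were 339, 151, 2 and 6. Where no cause is given, the cause was not tested.

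The number of called nuclear members moved as follows. The share of all genes called under the same setting is not given for these counts. The same holds for other counts by DESeq2, block, left-out library or unadjusted p, unless a share under that setting is printed. Such counts do not show whether the subunit genes moved more than other genes. DESeq2 called 5 in 3DF vs. 2DC, 2 in 3DF vs. 2DF, 2 in 3DF vs. 3DF_50 and 12 in 3DF vs. 2DC_L. Library size alone gave 1 in 2DF vs. 2DC, 1 in 3DF vs. 2DF, 31 in 3DF_50 vs. 2DC, 31 in 3DF_50 vs. 2DC_L and 4 in 3DF_50 vs. 2DF. With no filter 1 was called in 3DF vs. 2DF and 2 in 2DF vs. 2DC_L. A model of all 5 conditions gave 7 in 3DF vs. 2DC, 8 in 3DF vs. 2DF, 2 in 3DF vs. 3DF_50 and 14 in 3DF vs. 2DC_L. That model with the prefix as a block gave 3 in 3DF vs. 2DC, 0 in 2DF vs. 2DC, 2 in 3DF_50 vs. 2DC, 4 in 3DF_50 vs. 2DC_L, 0 in 2DF vs. 2DC_L and 2 for any difference. The 2-fold limit left 1 (NDUFA4L2) in each of 2DF vs. 2DC, 3DF_50 vs. 2DC, 3DF_50 vs. 2DC_L, 3DF vs. 2DC_L and 2DF vs. 2DC_L.

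The number of called mitochondrially encoded members was 1 in 3DF vs. 2DC, 2 in 2DF vs. 2DC, 4 in 3DF_50 vs. 2DC_L, 0 in 2DF vs. 2DC_L and 2 for any difference under DESeq2. With library size alone it was 1 in 3DF vs. 2DC, 5 in 3DF_50 vs. 2DC, 2 in 3DF_50 vs. 2DC_L and 3 for any difference. With no filter it was 1 in 3DF_50 vs. 2DC and 2 for any difference. The model of all 5 conditions gave 1 in 3DF_50 vs. 2DC and 0 in 2DF vs. 2DC_L. With the prefix it gave 1 in 3DF_50 vs. 2DC, 0 in 2DF vs. 2DC, 0 in 2DF vs. 2DC_L and 0 for any difference. The 2-fold limit left 1 in 3DF_50 vs. 2DC.

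Replicate numbers are shared between conditions, but same-numbered libraries did not deviate together in every pair (r = -0.16 to 0.30), so they were not taken as pairs. Replicate numbers do not follow the prefixes, since E6 is 3DF replicate 1 and 2DC replicate 3. The check by number thus cannot show whether libraries of a shared prefix deviate together. Where number and prefix matched, r was 0.30 and 0.081 in 2DC vs. 2DC_L and 0.22 in 3DF_50 vs. 2DC_L. With the replicate number as a block, 3 nuclear members were called in 3DF vs. 2DC and 2 in 2DF vs. 2DC_L. Of the mitochondrially encoded members the block left 0 in 2DF vs. 2DC, 1 in 3DF_50 vs. 2DC, 0 in 2DF vs. 2DC_L and 0 for any difference.

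Leaving out 1 library in turn gave 1 to 6 nuclear members in 3DF vs. 2DC (6 without 3DF replicate 1) and 1 to 4 in 2DF vs. 2DC (1 without 2DC replicate 3 or 2DF replicate 1 or 2, 4 without 2DF replicate 3). It gave 0 to 1 in 3DF vs. 2DF (1 without 2DF replicate 2) and 6 to 10 in 3DF_50 vs. 2DC (7 without 2DC replicate 1, 6 without 2DC replicate 2 or 3DF_50 replicate 3). In 3DF_50 vs. 2DC_L the range was 8 to 18 (8 without 2DC_L replicate 1 or 2, 9 without 3DF_50 replicate 2). In 3DF vs. 2DC_L it was 1 to 14 (1 without 2DC_L replicate 1 or 2, 2 without 2DC_L replicate 3, 14 without 3DF replicate 1). In 2DF vs. 2DC_L it was 2 to 4 (2 without 2DF replicate 2 or any library of 2DC_L), and for any difference 10 to 19 (11 without 2DC_L replicate 1, 10 without 2DC_L replicate 2 or 3DF_50 replicate 3). Of the mitochondrially encoded members 0 to 1 were called in 2DF vs. 2DC (0 without replicate 1 or 2 of either), 0 to 1 in 3DF vs. 3DF_50 (1 without 3DF replicate 1), and 1 to 2 in 3DF_50 vs. 2DC (2 without 3DF_50 replicate 2). In 3DF_50 vs. 2DC_L it was 1 to 3 (3 without 2DC_L replicate 1) and in 2DF vs. 2DC_L 0 to 2 (2 without 2DC_L replicate 3, 0 without replicate 1 or 2 of either). For any difference it was 0 to 3 (3 without 3DF replicate 2, 2 without 3DF replicate 3, and 0 without replicate 1 or 2 of 2DC or 2DC_L, 2DF replicate 1, or 3DF_50 replicate 2 or 3). Calls in the lists of related genes also rose without 3DF replicate 1. In 3DF vs. 2DC they became 4 tricarboxylic acid cycle enzymes, 4 electron carriers and transporters, 2 mitochondrial ribosomal proteins and 8 hypoxia-induced genes. Biogenesis regulators became 2, and assembly factors and genes for mitochondrial DNA 1 each. In 3DF vs. 2DF the calls became 2 biogenesis regulators, 2 electron carriers and transporters and 4 hypoxia-induced genes.

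Library size alone turned the log2 fold change to 0.096 for ATP6, 0.12 for ND1 and 0.062 for NDUFC2 in 3DF_50 vs. 2DC. In 3DF_50 vs. 2DC_L it turned ATP5G3 to 0.030, NDUFA4 to 0.088, NDUFB6 to 0.087, NDUFC2 to 0.063 and NDUFA7 to 0.0059. The prefix block turned NDUFA4L2 to -0.58 in 3DF vs. 2DF. Leaving out 1 library turned changes that had not been called, with ranges of -0.049 to 0.12 for ATP5G1 in 2DF vs. 2DC, and in 3DF vs. 2DF of -0.36 to 0.058 for ATP5G2, -0.13 to 0.0041 for ATP5G3 and -1.24 to 0.19 for ATP8.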
